A study of Mus musculus with 14 samples.

Results

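The mitotic genes are 38 mouse genes whose products drive entry into mitosis, build the spindle and kinetochores, separate the chromosomes and divide the cell. They were taken as a list of symbols and matched to probes through the RefSeq accession that the array gives for each probe. The list was drawn up with earlier results of these data known, so that its direction is no independent evidence. The array carries 57 probes for them. Of the 38 genes, 36 had a probe that was well above background in 3 or more of the 14 arrays, and these entered the tests, among 30579 genes tested, 17290 of which have a symbol. The members left out were Kif11, the kinesin that pushes spindle poles apart, whose probe was well above background on 2 arrays, and Ttk, the checkpoint kinase Mps1, whose 3 probes were so on 0, 1 and 2 arrays. Kif2c, a kinesin that shortens microtubules, lay just inside the limit with 3 arrays, 1 each of control, CCF and RCF.

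Whole lung RNA of male C57BL/6N mice was labelled with Cy3 and hybridized to Agilent arrays, 1 sample to an array, 1 month after material was placed in the airway through the trachea. The 4 groups were the phosphate-buffered saline vehicle (control, n = 5), carbon fibre before recycling (VCF, n = 3), carbon fibre after a carbonization step (CCF, n = 3) and carbon fibre after a firing step (RCF, n = 3), each fibre at 200 µg per mouse. Per the series' description the samples of a group are independent biological samples, and the age of the mice, fibre length and the animals behind each sample are not given in the sources used here. The comparisons show how the transcripts of dividing cells stood in the lung after each fibre and whether the fibres differed.

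Levels are log2 of the processed signal minus the array's 75th percentile of it, so that 0 is the signal at that percentile, and they are compared between arrays for the same probe and not between probes. The 75th percentile itself ran from 277 to 2953 intensity units, and it was low on VCF 1 (277), CCF 2 (323) and RCF 1 (375) against at least 891 on the other 11 arrays. The share of the members well above background followed in part: 18 of 36 on VCF 1, 31 and 34 on VCF 2 and 3, 33 to 35 on the control arrays, 32 to 36 on the CCF arrays and 33 to 36 on the RCF arrays. The arrays lay on 3 slides, with control on all 3, VCF and CCF on slides 1 and 2, and RCF on slides 1 and 3. All 6 markers of alveolar type 2 cells, the surfactant-making cells of the lung, passed the filter, and none passed the test after VCF (0 at an unadjusted p under 0.05). The VCF arrays were not alike in them: the median relative to the control mean was 0.64 on VCF 1 and −0.33 on VCF 2 and on VCF 3. On the control arrays it ran from −0.26 to 0.14.

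Cells that commit to division raise a set of transcripts in the G2 phase and mitosis, and most of these transcripts are nearly absent from resting cells. In the adult lung few cells divide, chiefly immune cells, endothelial cells, resident macrophages and epithelial progenitors. The set is controlled through promoters that carry CCAAT boxes, bound by the factor NF-Y, and a cell cycle genes homology region (CHR), bound by the MuvB complex, which represses as part of DREAM in resting cells and activates with B-Myb and Foxm1 in dividing ones. In a whole organ, fewer cells that make these transcripts and less RNA per cell cannot be told apart.

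Promoters of 31 of the 38 members were found in RefSeq's GRCm38.p6 annotation, as 33 windows of 250 bases before to 50 bases after the annotated start, since Ect2 and Prc1 each have 2 starts. The members without an entry were Aurkb, Ccna2, Foxm1, Kif20a, Pbk, Shcbp1 and Tpx2. The stretches shown run over the 150 bases before the start, and they belong to the members with the clearest differences from control for which a window was held. Capitals mark the CHR letters, TTTGAA or TTCGAA, and the CCAAT letters. They were searched on both strands, so that TTCAAA and ATTGG count too, while TTCGAA reads the same on both. Mki67 (GRCm38.p6, chr7:135716380-135716529, minus strand) has a CCAAT box and a pair of CHR elements in this stretch, Ckap2 (chr8:22185820-22185969, minus strand) 1 of each, Prc1 (chr7:80294326-80294475, plus strand, the more downstream start) 1 of each, Cdca3 (chr6:124830026-124830175, plus strand) 2 CCAAT boxes, Plk1 (chr7:122159285-122159434, plus strand) 1 CCAAT box, and Birc5 (chr11:117849087-117849236, plus strand) neither.
Cdca3: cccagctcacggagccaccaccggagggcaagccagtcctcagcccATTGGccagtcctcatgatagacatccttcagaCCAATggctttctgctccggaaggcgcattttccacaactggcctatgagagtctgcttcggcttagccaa
Mki67: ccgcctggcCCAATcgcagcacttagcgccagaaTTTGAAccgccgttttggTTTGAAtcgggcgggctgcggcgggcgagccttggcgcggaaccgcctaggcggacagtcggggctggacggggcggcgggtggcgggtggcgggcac
Ckap2: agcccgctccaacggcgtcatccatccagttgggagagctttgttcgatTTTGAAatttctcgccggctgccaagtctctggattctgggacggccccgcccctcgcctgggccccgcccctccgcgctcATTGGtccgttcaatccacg
Plk1: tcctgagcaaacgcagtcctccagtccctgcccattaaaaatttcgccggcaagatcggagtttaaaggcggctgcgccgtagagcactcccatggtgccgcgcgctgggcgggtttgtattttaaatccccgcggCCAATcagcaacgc
Birc5: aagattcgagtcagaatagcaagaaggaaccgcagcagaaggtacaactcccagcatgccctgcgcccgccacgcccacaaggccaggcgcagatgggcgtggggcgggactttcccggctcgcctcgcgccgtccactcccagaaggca
Prc1: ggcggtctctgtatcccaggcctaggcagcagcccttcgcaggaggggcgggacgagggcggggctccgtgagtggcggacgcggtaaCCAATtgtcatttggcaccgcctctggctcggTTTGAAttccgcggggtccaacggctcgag

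A CHR was present in 25 of the 31 members (80.6%), against 19.2% of all 32851 promoter windows of the same length. It lay within 50 bases of the start in 22 members (71.0%), against 5.31% of all windows. In Cdca3 and Plk1 the CHR is 30 bases after the start and so outside the stretches shown. A CCAAT box was present in 24 members (77.4%, against 37.4%), 2 or more of them in 17 (54.8%, against 11.7%), and both motifs in 22 (71.0%, against 7.53%). No CHR match overlapped a CCAAT match. The windows of Birc5, Ccnb1, Cenpe, Melk, Nuf2 and Nusap1 held no match to the CHR letters. Over the 33 windows, with those of Ect2 and Prc1 counted separately, 60 of 61 CCAAT matches lay before the start. These matches describe the sequences and do not show that a factor was bound in these lungs.

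**Figure D1:**
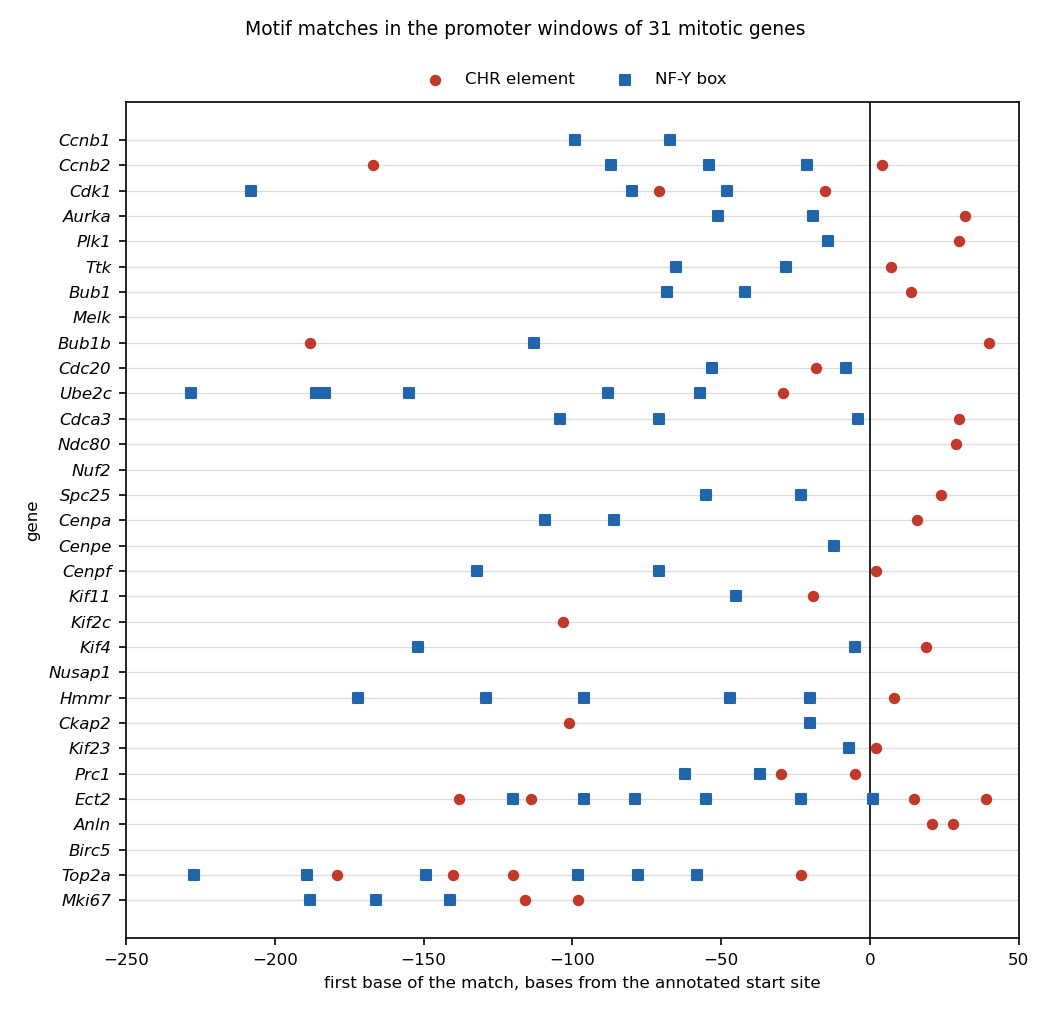
Positions of CHR matches (red circles) and CCAAT matches (blue squares, labelled NF-Y box) in bases from the annotated start site for the 31 mitotic genes with a promoter window (y axis). Squares gather in the 100 bases before the start and circles around it, and the matches of Ect2 and Prc1 are drawn once for each of their 2 starts.

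The transcripts were lower after VCF than in control lungs for nearly all members, higher after CCF for most, and without a common direction after RCF. As the plot of levels by array shows, the median of the 36 members relative to the control mean was −0.89, −0.92 and −0.59 on VCF 1 to 3, where the control arrays gave −0.06, 0.33, 0.21, −0.18 and −0.15. It was 0.20, 0.28 and 0.58 on CCF 1 to 3 and 0.18, 0.03 and −0.19 on RCF 1 to 3. Every VCF array thus lay below every control array in this median, while the CCF arrays overlapped the upper control arrays and the RCF arrays, from −0.19 to 0.18, overlapped a control range of −0.18 to 0.33. On the VCF arrays 26, 24 and 24 members were below all 5 controls, and on the CCF arrays 9, 12 and 22 were above all 5. How many of all genes did so on a single array was not counted, so these counts have no background beside them.

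**Figure D2:**
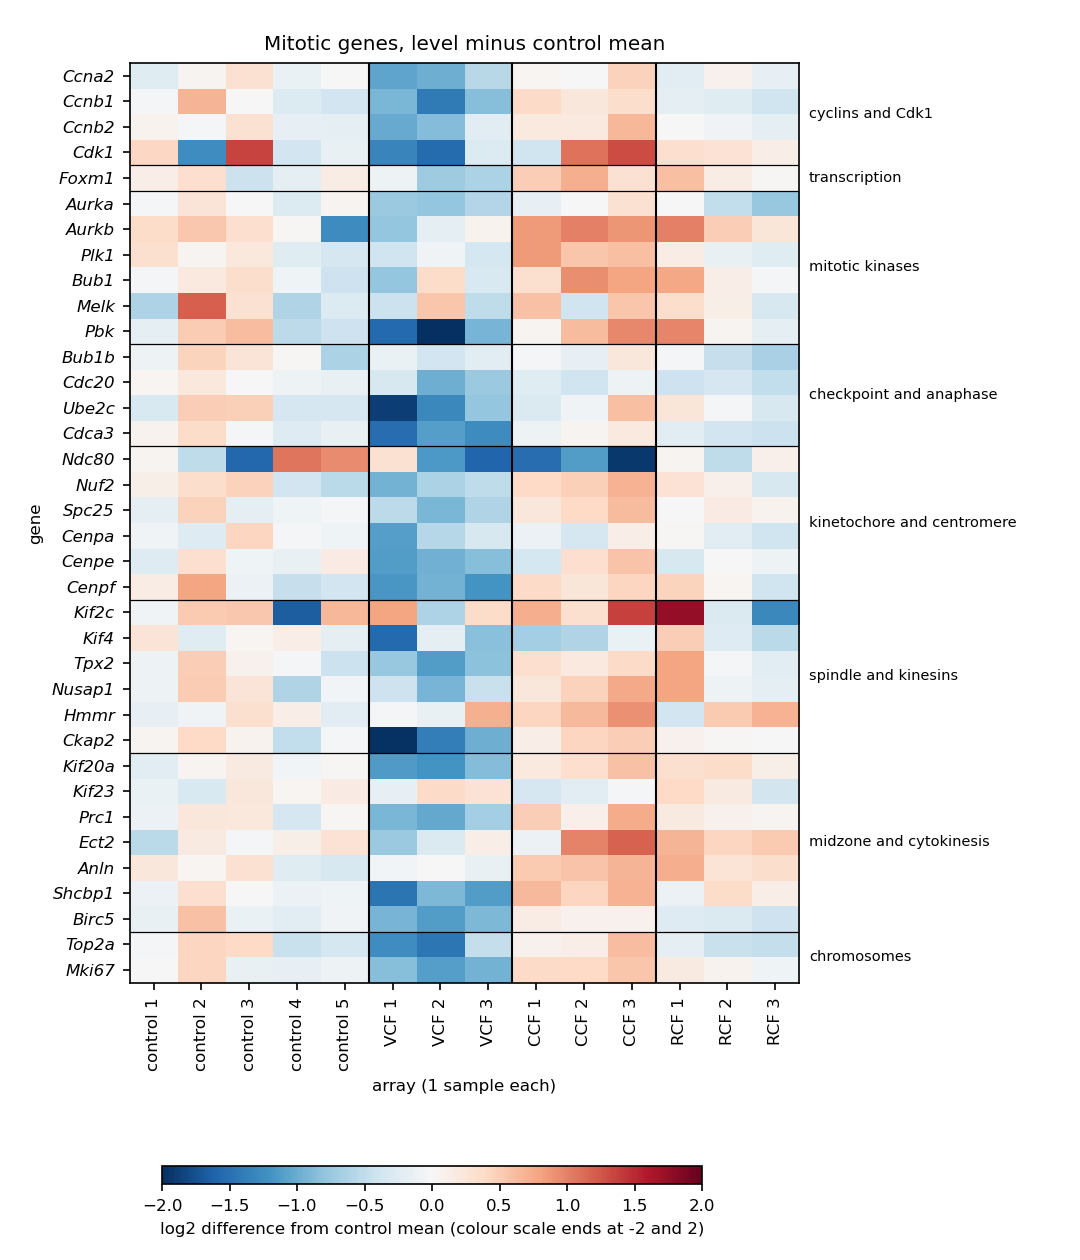
Level of each of the 36 measured mitotic genes (y axis, grouped by role) on each of the 14 arrays (x axis, grouped as control, VCF, CCF and RCF), as the log2 difference from the control mean by colour, blue for lower and red for higher. The 3 VCF columns are blue for most genes, the CCF columns are mostly red, and Ndc80 is blue on the CCF arrays.

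Against control, 33 of 36 members were lower after VCF, where 50.3% of all genes were, and their median difference was −0.75, where that of all genes was 0.00 (−0.42 with normexp background correction). With limma's test over all genes and Benjamini-Hochberg adjustment (adjusted p under 0.05), 5 members fell and 0 rose: Cdca3, Ckap2, Kif20a, Shcbp1 and Mki67. Over all genes 0.0556% fell by this test and 0.0294% rose. No member was higher at an unadjusted p under 0.05, where 4.97% of all genes were. In 20 members every VCF array lay below every control array, which held for 3.9% of all genes, and 23 had a lower value at an unadjusted p under 0.05, which held for 4.99%. Of the 17290 genes with a symbol 9426 were lower after VCF, with a median of −0.03. In 1001 of them every VCF array lay below every control array. The 5 calls lie near the threshold: the fit on VCF and control arrays alone called 0 members (22 at an unadjusted p under 0.05), as did leaving out control 1, control 4, VCF 1, VCF 2, CCF 1, CCF 2, RCF 1 or RCF 2, while leaving out control 5 called 1, control 2, control 3, CCF 3 or RCF 3 called 2, and VCF 3 called 3. Within slides the median difference was −0.93 on slide 1 (2 arrays against 2) and −0.76 on slide 2 (1 against 1). The median was −0.76 without VCF 1, CCF 2 and RCF 1, the arrays of low signal, and 0 members were called then (21 at an unadjusted p under 0.05).

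Among the cyclins and their kinase, all 4 members were lower after VCF, none past the test, with a median difference of −0.95. Ccnb1, the cyclin B that activates Cdk1 at mitotic entry, was at −3.23, −2.53, −3.21, −3.49 and −3.59 on the control arrays and at −4.13, −4.63 and −4.07 on the VCF arrays, a difference of −1.06 (SE 0.22, adjusted p = 0.101). Its highest VCF array lay below its lowest control array, and control 2 was the highest of the controls. Ccna2, the cyclin A of S phase and G2, differed by −0.86 (SE 0.17, adjusted p = 0.0952) and also did not overlap. Ccnb2 differed by −0.70 without overlap, and Cdk1, the kinase itself, by −1.04 with a wide spread (SE 0.54), its probe being well above background on 1 VCF array.

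Of the mitotic kinases, 6 were measured and all were lower after VCF, with a median of −0.29 and none past the test. Pbk, a kinase of mitotic cells, was at −4.02, −3.31, −3.20, −4.35 and −4.23 in control and at −5.38, −5.90 and −4.75 after VCF, a difference of −1.52 (SE 0.38, adjusted p = 0.167). The groups did not overlap, but the probe was well above background on 1 of 3 VCF arrays. Aurka, the kinase of the spindle poles, differed by −0.70 (SE 0.18, adjusted p = 0.194), again without overlap. Aurkb, the kinase of the chromosomal passenger complex, Plk1, the polo-like kinase that acts from mitotic entry to cytokinesis, Bub1, a kinase of the spindle checkpoint, and Melk differed by −0.30, −0.27, −0.24 and −0.13, with VCF and control arrays overlapping for each.

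The checkpoint and anaphase genes held the member with the smallest p. Cdca3, which promotes mitotic entry, was at −1.71, −1.41, −1.82, −2.04 and −1.92 on control 1 to 5 and at −3.31, −2.89 and −3.03 on VCF 1 to 3. It fell by 1.30 on the log2 scale (SE 0.16, adjusted p = 0.0318), 2.46-fold lower than control. All VCF arrays lay below all controls, and 2 of the 3 were well above background. Ube2c, the ubiquitin-conjugating enzyme of the anaphase-promoting complex, was at −2.77, −1.98, −2.002, −2.80 and −2.81 in control and at −4.36, −3.76 and −3.25 after VCF, a difference of −1.32 (SE 0.31, adjusted p = 0.156) without overlap. Cdc20, an activator of that complex, differed by −0.68 (SE 0.15, adjusted p = 0.130), and its second probe by −0.75, with no overlap for the probe used. Bub1b, the checkpoint protein BubR1, differed by −0.24 with overlap.

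All 6 kinetochore and centromere genes were lower after VCF, none past the test, with a median of −0.75. Spc25, a subunit of the Ndc80 complex that ties kinetochores to microtubules, was at −1.49, −0.85, −1.49, −1.40 and −1.33 in control and at −1.83, −2.22 and −1.92 after VCF. The difference was −0.68 (SE 0.17, adjusted p = 0.167), with no overlap. Cenpe, a kinesin that brings chromosomes to the spindle equator, and Cenpf, a kinetochore protein of G2 and mitosis, differed by −0.98 and −1.10, and Cenpa, the histone variant that marks centromeres, by −0.66. None of these 3 overlapped with control. Nuf2 (−0.70) and Ndc80 (−0.81), both of the Ndc80 complex, overlapped with control.

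Of the 6 spindle genes measured, 4 were lower after VCF and 1 fell past the test. Ckap2, a microtubule-binding protein of the spindle, was at −2.25, −1.91, −2.25, −2.81 and −2.35 in control and at −4.30, −3.70 and −3.30 after VCF. It fell by 1.45 on the log2 scale (SE 0.23, adjusted p = 0.0484), 2.73-fold lower than control, and the groups did not overlap. The lowest of the VCF values was on VCF 1, the array of lowest signal, and 2 of the 3 VCF arrays were well above background. Tpx2, which activates Aurora A on the spindle, differed by −0.90 without overlap, and the chromokinesin Kif4 (−0.85) and Nusap1 (−0.60), which bundles microtubules, overlapped with control. Hmmr, a hyaluronan receptor that also binds spindle microtubules, and Kif2c were both 0.18 higher, with overlap and standard errors of 0.27 and 0.68.

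Genes of the spindle midzone and of cytokinesis included 2 that fell. Kif20a, the kinesin that carries the chromosomal passenger complex to the midzone, was at −2.66, −2.39, −2.27, −2.51 and −2.42 in control and at −3.58, −3.64 and −3.32 after VCF, and fell by 1.06 on the log2 scale (SE 0.14, adjusted p = 0.0373). Its probe was well above background on 2 of the 3 VCF arrays. Shcbp1, a protein of the midbody, was at −4.33, −3.88, −4.22, −4.34 and −4.30 in control and at −5.68, −5.11 and −5.33 after VCF, and was called lower by 1.16 (SE 0.17, adjusted p = 0.0404). The VCF arrays lay below all controls for both genes. Shcbp1 was not well above background on any VCF array, so that its level there is a bound and it was at least 1.86-fold lower than in control. Birc5, survivin of the passenger complex, was at −0.40, 0.34, −0.37, −0.47 and −0.31 in control and at −1.16, −1.36 and −1.13 after VCF, a difference of −0.98 (SE 0.17, adjusted p = 0.0643) that missed the threshold. Prc1, which cross-links midzone microtubules, was at −1.51, −1.16, −1.18, −1.73 and −1.36 in control and at −2.31, −2.41 and −2.07 after VCF, a difference of −0.88 (SE 0.17, adjusted p = 0.0927). Neither gene overlapped between the groups. Ect2, the exchange factor that activates RhoA at the division furrow, Anln, the furrow scaffold anillin, and Kif23, a centralspindlin kinesin, differed by −0.30, −0.07 and 0.17, all with overlap, and the other kept probe of Ect2 by 0.13.

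Both chromosome genes were lower after VCF. Mki67, the surface protein of mitotic chromosomes known as Ki-67, was at 0.02, 0.44, −0.14, −0.16 and −0.09 in control and at −0.84, −1.10 and −0.94 after VCF. It fell by 0.97 on the log2 scale (SE 0.15, adjusted p = 0.0484), 1.96-fold lower than control. All 3 VCF arrays were well above background for it and lay below all controls. Top2a, the topoisomerase that untangles chromosomes, differed by −1.05 (SE 0.27, adjusted p = 0.181) without overlap. Foxm1, the transcription factor that activates many of these genes, differed by −0.48 (SE 0.21, adjusted p = 0.485) and overlapped with control. The median difference after VCF was −0.70 over the 23 measured members with a CHR in the window and −0.84 over the 6 without one, which describes the list and was not tested.

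**Figure D3:**
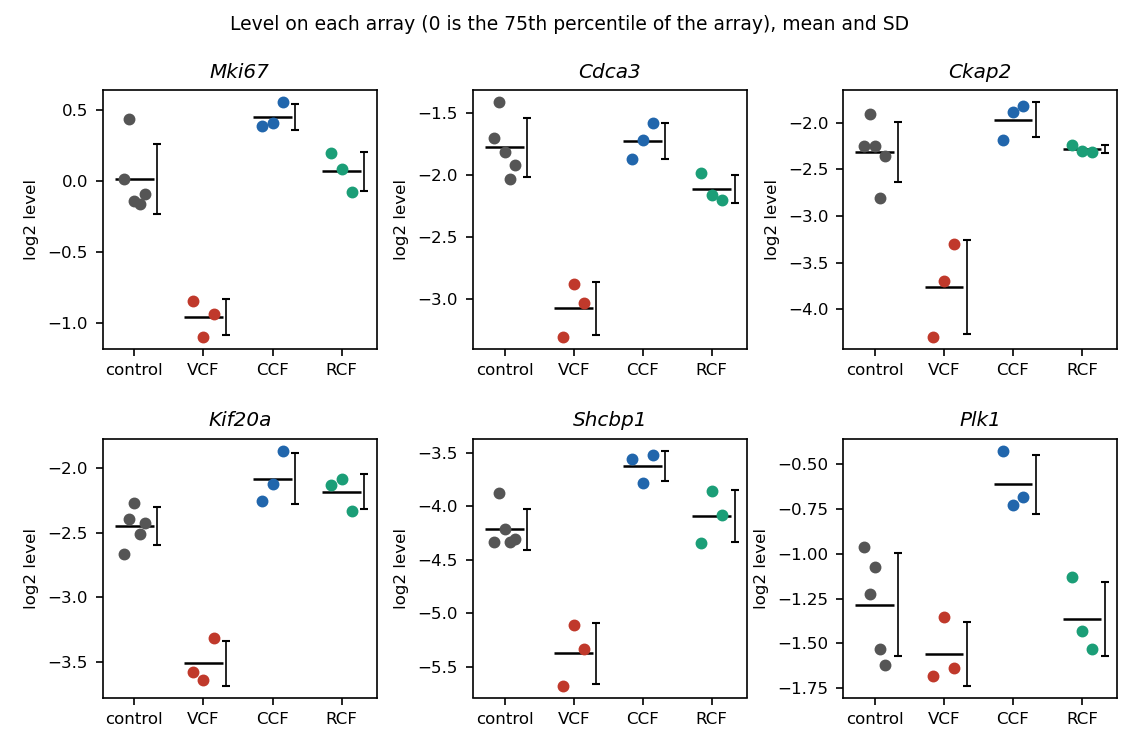
Log2 level (y axis, 0 is the 75th percentile of the array) of 6 members on each array by group (x axis), with the group mean as a line and the SD as a bar beside it. VCF arrays lie below all control arrays for Mki67, Cdca3, Ckap2, Kif20a and Shcbp1, and CCF arrays lie above all control arrays for Plk1, Kif20a and Shcbp1.

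After CCF, 31 of 36 members were higher than in control, where 49.7% of all genes were, with a median difference of 0.35 against 0.00 over all genes. This median was 0.18 with normexp background correction, 0.20 with the slide as a fixed block or with a replicate block, and 0.23 over the members well above background on all 14 arrays. Plk1 rose and no member fell (limma, adjusted p under 0.05), and without adjustment 12 were higher (12.9% of all genes) and 1 lower (10.8%) at p under 0.05. Over all genes 3.78% rose and 2.21% fell, so that 1 member of 36 is no larger a share. Of the 17290 genes with a symbol 9416 were higher after CCF, with a median of 0.05, and 775 rose. In 6 members every CCF array lay above every control array, Aurkb, Plk1, Hmmr, Kif20a, Anln and Shcbp1, where 9.86% of all genes did so. The count of 1 became 0 without control 4, control 5, VCF 2, VCF 3, CCF 1, CCF 2, CCF 3, RCF 2 or RCF 3, it was 2 without RCF 1, 3 without control 3 and 4 without control 2, and it was 0 in the fit on CCF and control alone (10 members at an unadjusted p under 0.05). Within slide 1 (2 arrays against 2) the median was 0.13, with 15 of 36 members below 0, and within slide 2 (1 against 1) 0.35.

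Plk1 was at −0.96, −1.23, −1.07, −1.53 and −1.62 in control and at −0.43, −0.73 and −0.68 after CCF, and rose by 0.67 (SE 0.18, adjusted p = 0.0466), 1.59-fold higher than control. All 3 CCF arrays lay above all controls. Anln differed by 0.59 (SE 0.17, adjusted p = 0.0565) and Shcbp1, at −3.56, −3.79 and −3.53 on the CCF arrays, by 0.59 (SE 0.17, adjusted p = 0.0598), both without overlap. Mki67 was at 0.39, 0.41 and 0.56, a difference of 0.44 (SE 0.15, adjusted p = 0.0977), and only the control 2 array reached into its CCF range. By role the median was 0.34 for the cyclins and Cdk1, 0.61 for the kinases, 0.03 for checkpoint and anaphase genes, 0.27 for kinetochore genes, 0.42 for spindle genes, 0.45 for midzone and cytokinesis genes and 0.36 for the chromosome genes, and Foxm1 differed by 0.51.

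Ndc80, the subunit after which the kinetochore complex is named, had the lowest difference of the members after CCF. It was at −2.21, −2.78, −3.84, −1.20 and −1.32 in control, −1.97, −3.42 and −3.86 after VCF, −3.79, −3.38 and −4.21 after CCF and −2.21, −2.79 and −2.18 after RCF, and the CCF difference was −1.52 (SE 0.58, adjusted p = 0.137). Its control arrays alone spanned most of this range, with control 3 among the CCF values. Its partners in the complex, Nuf2 and Spc25, were higher after CCF by 0.52 and 0.41, not past the test, but the other kept probe of Spc25, well above background on all 14 arrays, gave −0.49 (SE 0.50). Kif4 (−0.47), Cdc20 (−0.25), Kif23 (−0.19) and Cenpa (−0.11) were the other members with lower values after CCF, all overlapping with control. The other kept probe of Kif23 gave 0.20, and that of Cenpf −1.29 where the probe used gave 0.35.

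After RCF, 21 members had a higher value than control, where 57.1% of all genes did, and 15 a lower one, with a median difference of 0.04 against 0.06 over all genes. Of the 17288 genes with a symbol tested here 9450 were higher, with a median of 0.04. No member passed limma's test, where 0.131% of all genes rose and 0.0229% fell, and without adjustment 1 was higher (8.78% of all genes) and 2 lower (4.15%) at p under 0.05. Cdc20 (−0.42, SE 0.15, adjusted p = 0.257) and Birc5 (−0.32, SE 0.17, adjusted p = 0.467) lay below all controls on every RCF array (3.76% of all genes) and Ect2 (0.54, SE 0.30, adjusted p = 0.492) above all controls (7.6%). The other kept probe of Birc5 gave 0.35, the opposite sign. The median was −0.10 without the RCF 1 array, −0.07 without control 4, 0.12 without control 2 and −0.10 under quantile scaling, so that its sign depends on these choices. Within slides it was 0.06 (slide 1, 1 array against 2) and 0.12 (slide 3, 2 against 2). The Mki67 level was 0.20, 0.09 and −0.08 on the RCF arrays, within the range of the controls, and differed from control by 0.06 (SE 0.15, adjusted p = 0.936), with a 95% interval from −0.27 to 0.38.

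**Figure D4:**
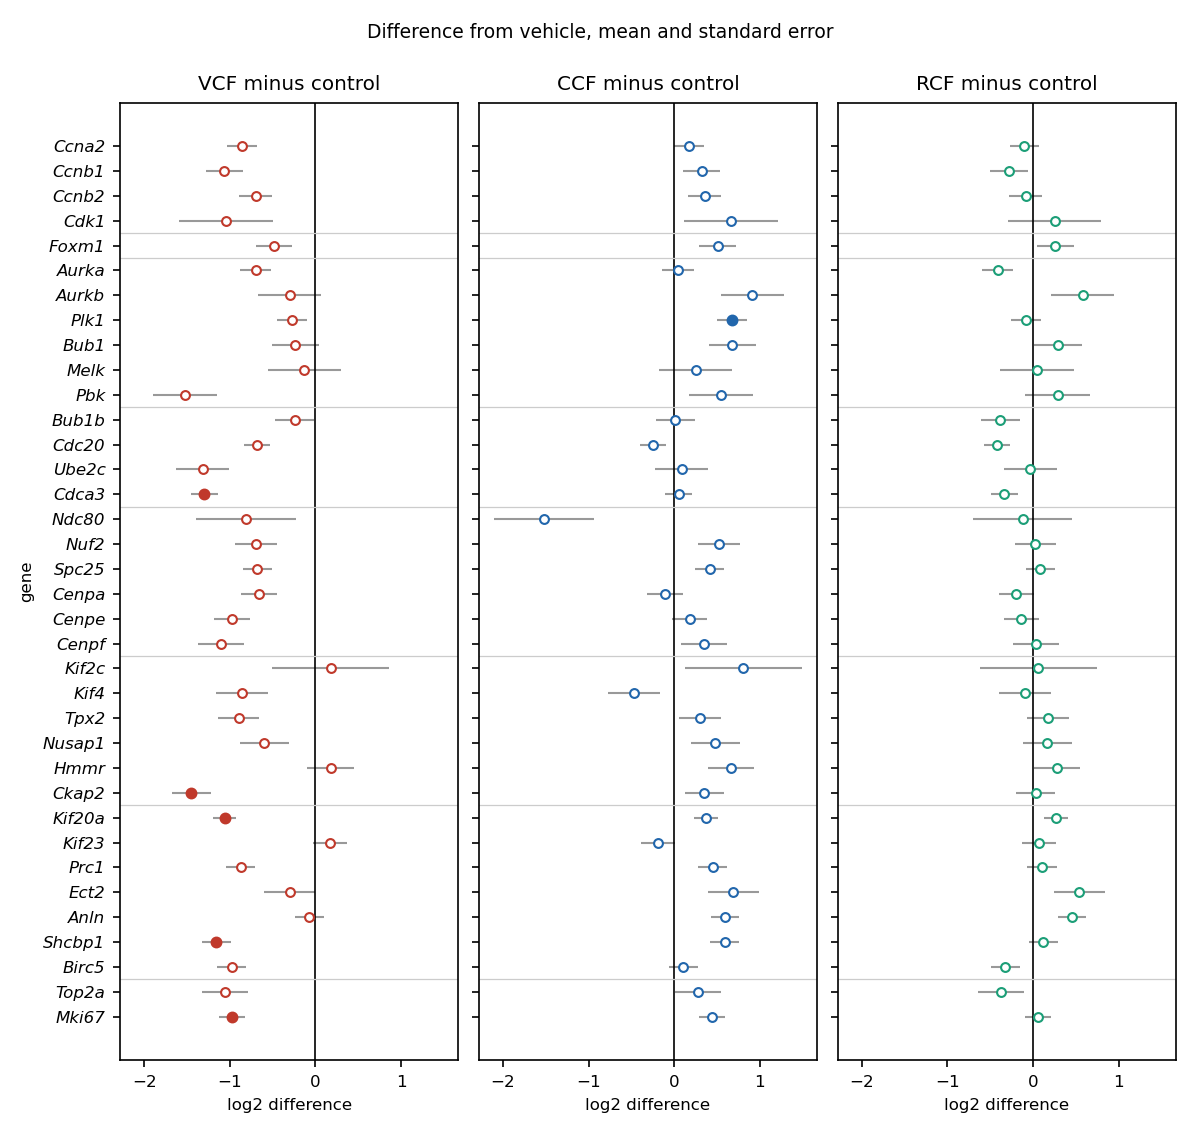
Log2 difference from control (x axis) of each measured mitotic gene (y axis, ordered by role) after VCF, CCF and RCF, with the standard error as a bar and filled circles for adjusted p under 0.05. VCF values lie mostly left of 0, CCF values mostly right of it with Ndc80 at −1.52, and RCF values on both sides. The 3 panels share the control arrays.

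The fibres were compared with each other directly, on the same dose and time. CCF exceeded VCF in 34 of 36 members, where 51.2% of all genes did, with a median difference of 1.08 against 0.01 over all genes (0.57 with normexp background correction). Here 8 members were higher and 0 lower by limma's test (0.0948% of all genes were higher and 0.128% lower). Without adjustment 29 were higher (7.56% of all genes) and 0 lower (6.21%) at p under 0.05, and in 24 every CCF array lay above every VCF array (10.7% of all genes). Of the 17290 genes with a symbol 10403 were higher after CCF, with a median of 0.08. In 2522 of them every CCF array lay above every VCF array. Leaving out 1 array gave counts of 3 without CCF 3, 4 without VCF 1, VCF 2 or CCF 2, 6 or 7 without each of the others but control 2, and 10 without control 2. The fit on these 6 arrays alone called 0, with 26 at an unadjusted p under 0.05, and within slides the median was 1.03 (slide 1, 2 arrays against 2) and 1.07 (slide 2, 1 against 1).

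The 8 members span 5 roles. Kif20a, at −2.26, −2.12 and −1.87 after CCF, was higher by 1.43 (SE 0.15, adjusted p = 0.00587), and Mki67 by 1.41 (SE 0.17, adjusted p = 0.00697). Shcbp1, not well above background on any VCF array, was higher by 1.75 (SE 0.19, adjusted p = 0.00587), at least 2.80-fold. The fold between the carbonized and the unrecycled fibre was 2.67 for Mki67 and 2.70 for Kif20a, and no array of one group reached the other. Cdca3, at −1.87, −1.72 and −1.58 after CCF, was higher by 1.35 (SE 0.18, adjusted p = 0.0125), and Ckap2, at −2.18, −1.89 and −1.83, by 1.80 (SE 0.26, adjusted p = 0.0175). Prc1, at −0.90, −1.28 and −0.64 after CCF, was higher by 1.32 (SE 0.19, adjusted p = 0.0202). For Spc25, at −1.09, −0.91 and −0.68, and Birc5, at −0.09, −0.16 and −0.16, the differences were 1.09 (SE 0.19, adjusted p = 0.0419) and 1.08 (SE 0.19, adjusted p = 0.0498), the latter just inside the threshold. The other kept probe of Spc25, also well above background on all 14 arrays, had a lower value after CCF than after VCF, by −0.25 (SE 0.56), so that the call rests on 1 of 2 probes that disagree in sign. Ccnb1, at −2.83, −2.98 and −2.86 after CCF, was higher by 1.38 (SE 0.25, adjusted p = 0.0508), just outside it, and its arrays did not overlap either. Ndc80 (−0.71) and Kif23 (−0.36) had lower values after CCF than after VCF, neither past the test.

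RCF exceeded VCF in 33 of 36 members, where 57.5% of all genes did, with a median of 0.76 against 0.06 (0.44 with normexp background correction). Kif20a, at −2.13, −2.08 and −2.34 after RCF, was higher by 1.33 (SE 0.15, adjusted p = 0.0295) and was the only member past limma's test, where 0.00981% of all genes were higher. Without adjustment 23 were higher (6.17% of all genes) and 0 lower (2.88%) at p under 0.05. Of the 17288 genes with a symbol tested here 10258 were higher after RCF, with a median of 0.07. In 24 members every RCF array lay above every VCF array, which held for 10.5% of all genes, and on slide 1 (1 RCF array against 2) the median was 1.03. The call was lost without control 4, control 5, VCF 1, VCF 2, VCF 3, CCF 2, RCF 1 or RCF 2, and 2 members were called without control 2. Mki67 differed by 1.03 (SE 0.17, adjusted p = 0.0966) and Shcbp1, not well above background on any VCF array, by 1.28 (SE 0.19, adjusted p = 0.0868), at least 2.03-fold, with no array overlapping for either gene.

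Between RCF and CCF no member passed the test (0 of all genes were lower by it and 0.00327% higher), 7 members were lower after RCF (3.38% of all genes) and 0 higher (5.88%) at an unadjusted p under 0.05, and 33 of 36 had a lower value (44.9% of all genes), with a median of −0.33 against 0.04 over all genes (−0.13 with normexp background correction). In 11 members every RCF array lay below every CCF array, against 7.11% of all genes. Of the 17288 genes with a symbol tested here 9082 had a lower value after RCF, with a median of −0.02. In 1583 of them every RCF array lay below every CCF array. For Plk1 the difference was −0.75 (SE 0.20, adjusted p = 0.428), with a 95% interval from −1.18 to −0.32, and RCF arrays were at −1.13, −1.43 and −1.53. On slide 1, the only slide that holds both fibres, the median was 0.03 (1 RCF array against 2) with 18 of 36 members below 0, and with the slide as a fixed block it was −0.04.

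Genes outside the list that act in the same processes had median differences nearer 0 than the members after VCF. The members were chosen with earlier results of these data known, so that this gap in size is no independent evidence about them. Of 63 other mitotic genes 54 were measured, 46 were lower after VCF with a median of −0.39, and none passed the test (18 lower and 2 higher without adjustment, at p under 0.05), the smallest p being those of Cdca5 (−1.21, adjusted p = 0.0541), which protects sister chromatid cohesion, Kif22 (−0.999, adjusted p = 0.0736), a chromokinesin, Pimreg (−1.53, adjusted p = 0.0736) and Knstrn (−0.75, adjusted p = 0.0816), a spindle protein. After CCF 42 of the 54 were higher, with a median of 0.26, and 3 rose by limma's test, named here after their values were seen: Kif18a (1.03, adjusted p = 0.0472), a kinesin of the spindle, Ncapd3 (0.73, adjusted p = 0.0230), a condensin II subunit, and Cenpn (0.47, adjusted p = 0.0263), a centromere protein. With 3.78% of all genes risen after CCF, 3 of 54 is near the background. Of 35 genes of DNA replication and S phase 34 were measured and 29 were lower after VCF, with a median of −0.30, and 1 fell, the cyclin Ccne1 (−0.84, adjusted p = 0.0404), which drives entry into S phase. Tk1 (−0.91, adjusted p = 0.0815), E2f1 (−0.63, adjusted p = 0.103) and Pole (−0.67, adjusted p = 0.143) came next and missed the threshold. After CCF this list had a median of 0.07 and 2 genes rose, Pole2 (0.84, adjusted p = 0.0457), a subunit of DNA polymerase epsilon, and Prim1 (0.46, adjusted p = 0.0435), the primase. Both were named after their values were seen, and with 3.78% of all genes risen, 2 of 34 is near the background. On the 3 VCF arrays the median of this list lay between −0.35 and −0.22, and on the control arrays between −0.09 and 0.04. Of 12 measured genes of G1 cyclins, kinases and inhibitors none passed the test after VCF (3 lower and 3 higher without adjustment), with a median of −0.22, and the smallest p was that of Cdkn1a (0.93, adjusted p = 0.236), the inhibitor p21. The 16 genes of the DREAM and MuvB complexes had a median of 0.09 after VCF with none past the test (2 higher at an unadjusted p under 0.05), and Lin54, the MuvB subunit that binds the CHR, differed by 0.60, adjusted p = 0.257. After CCF 14 of these 16 had a higher value (49.7% of all genes), with a median of 0.34, and 7 were higher at an unadjusted p under 0.05 (12.9%). By limma's test Lin54 (0.94, adjusted p = 0.0169) and E2f5 (1.01, adjusted p = 0.0189), a repressing E2F factor, rose, as did 3.78% of all genes. After RCF the medians were 0.02 for the other mitotic genes, −0.11 for replication, −0.04 for the G1 genes and 0.20 for DREAM and MuvB, beside 0.04 for the members, and none of these genes passed the test.

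Markers of several blood and immune cell types also stood apart on the VCF arrays, and their part in the differences was not tested. Of the 6 alveolar macrophage markers, 4 had a higher value after VCF and 2 a lower one, with a median difference of 0.18. None passed limma's test, and without adjustment 2 of the higher ones and none of the lower ones had p under 0.05. Their sums overlapped, at 105 to 249 in control and 126 to 242 after VCF. All 10 T and NK cell markers had lower values after VCF (median −0.59, 0 past the test and 9 at an unadjusted p under 0.05, Cd2 with −0.67, adjusted p = 0.0573). Their summed level, on the scale of all sums here, where 1 is the 75th percentile of the array, was 31.5 to 34.1 on the control and 20.1 to 22.8 on the VCF arrays, 23.5 to 32.2 after CCF and 22.8 to 33.9 after RCF. The 6 B and plasma cell markers were lower too (median −0.62, 0 past the test and 4 at an unadjusted p under 0.05), with sums of 25.1 to 39.6 in control and 15.4 to 21.8 after VCF. Their sums were 17.98 to 20.6 after CCF and 18.7 to 21.6 after RCF, where the median difference of the mitotic genes was 0.35 and 0.04. All 5 measured erythroid markers were lower after VCF (median −1.58, 0 past the test and 5 at an unadjusted p under 0.05, sums of 207 to 397 in control, 90.8 to 182 after VCF, 224 to 320 after CCF and 218 to 308 after RCF).

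Neutrophil markers had the opposite sign, 6 of 6 higher after VCF (Stfa1 past the test, sums of 96.7 to 151 in control and 190 to 225 after VCF) and 6 of 6 lower after CCF (S100a8, S100a9, Retnlg and Cxcr2 past the test, sums of 24.4 to 43.5). Of 5 endothelial markers 4 were lower and 1 higher after VCF, with a median of −0.33 and a highest difference of 0.20. Only Plvap fell by limma's test (−1.14, adjusted p = 0.0462), and it was the only 1 lower at an unadjusted p under 0.05. After CCF Tek rose (0.76, adjusted p = 0.0413). The sums, in which bright markers weigh most, were 127 to 160 in control, 84.3 to 108 after VCF, 108 to 113 after CCF and 96.7 to 108 after RCF. Of the 6 thymus markers Rag1, Rag2 and Ptcra were well above background on 0 arrays and Themis on 3, while Dntt was so on 11 and Cd4 on 14. None passed the test after VCF, where Dntt differed by −1.42 (adjusted p = 0.492), at an unadjusted p of 0.0468, Cd4 by −0.35 and Themis by 0.15, and the summed level of these 3 was 0.446 to 1.29 in control and 0.304 to 1.02 after VCF. Of the 3 germ cell markers Dazl was well above background on 0 arrays, Ddx4 on 2 and Sycp3 on 3, and Sycp3 differed by −1.02 after VCF (adjusted p = 0.755). The 4 markers of granulocyte precursors, which divide in the bone marrow, gave 0 calls after VCF by limma and 0 at an unadjusted p under 0.05. Their control arrays were widely spread, with a median relative to the control mean of 2.17 on control 2 and −1.53 to −0.10 on the others. Mpo was at 0.05 and Ctsg at −1.92 on control 2, while Elane and Prtn3 did not stand apart there. Control 2 was also the highest control in the median of the mitotic genes (0.33), and a link between the 2 was not tested.

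**Figure D5:**
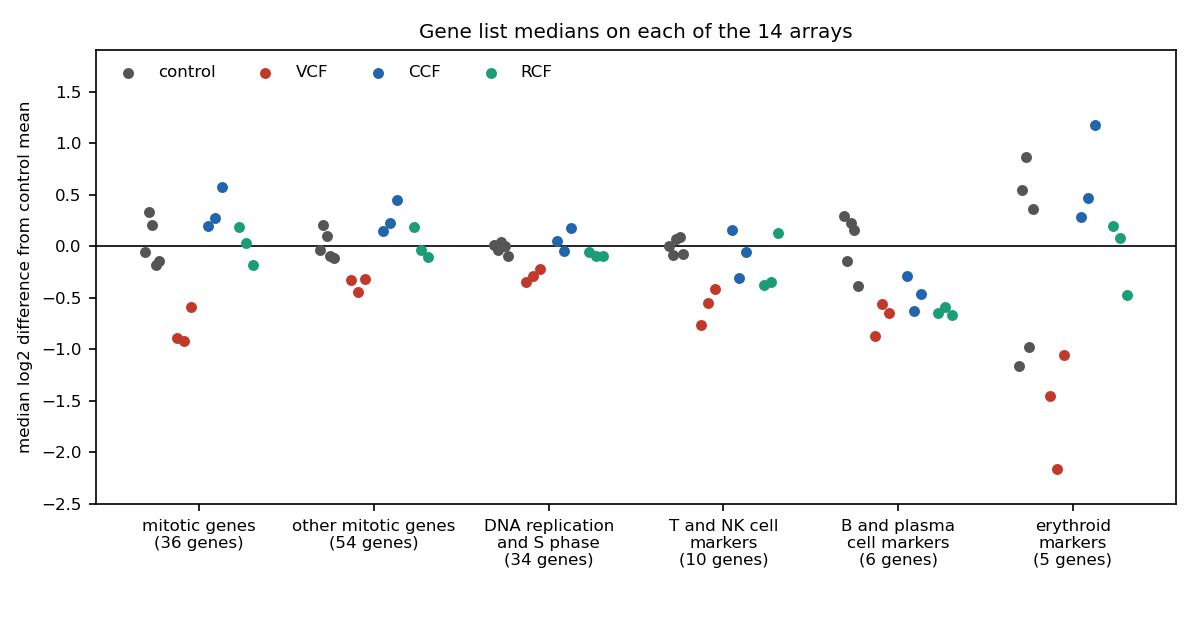
Median log2 difference from the control mean (y axis) over the genes of 6 lists (x axis, with the number of genes measured) on each of the 14 arrays, coloured by group. The VCF arrays lie below all controls for the mitotic genes (−0.92 to −0.59), for the other mitotic, replication and T and NK cell lists, and for the B and plasma cell markers, where CCF and RCF arrays are low as well, while for the erythroid markers 1 control array lies below the highest VCF array.

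With the group means removed, the members still varied together over the 14 arrays. The 630 pairs of members had a median Pearson r of 0.36, with 81.9% above 0 and a range from −0.84 to 0.90, where pairs sampled from all named genes had a median of 0.02. The level of a member with the mean of the others correlated most for Pbk (r = 0.92), Aurka (0.89), Ube2c (0.89), Nusap1 (0.86), Top2a (0.85) and Nuf2 (0.84), and least for Foxm1 (0.08), Hmmr (−0.05) and Ndc80 (−0.70). Median r with the member mean was 0.41 over the 54 other mitotic genes, 0.35 over the 34 replication genes and 0.10 over 17196 named genes that are not members. These values describe 14 arrays that share slides and differ in signal, and carry no test.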

How the data were processed

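Mouse lung RNA was measured on 14 one-colour Agilent arrays. Per the file headers Feature Extraction (version 10.7.3.1) read the scans. Its deposited intensity values are a processed signal that is background-subtracted and spatially detrended, not scaled between arrays, and the median signals of spot and background. The value table that the authors deposited holds log2 values equal to log2 of the processed signal minus a constant for each array, of origin not stated in the sources used here, and served as an alternative.

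Each array's 75th percentile (over non-control spots) was subtracted from log2 of the processed signal, outlier spots were left out, spots of a probe averaged, and 37984 of 56605 probes well above background on at least 3 arrays kept. The brightest kept probe stood for a gene (9 members had several, whose probes agreed in sign in 8 for VCF and 7 for RCF against control, 6 for CCF against control and CCF against VCF, 9 for RCF against VCF and 5 for RCF against CCF). Groups came from the labels. In R 4.3.3, reading files with version 1.17.8 of data.table, limma 3.58.1 was fitted to all 14 arrays without covariates, and p-values were adjusted by Benjamini-Hochberg over all genes of a comparison (threshold 0.05). The script was tested on simulated data. Where no array of a group was well above background, the fold was taken against the lowest signal well above background and given as "at least". The number of arrays limits the precision, and p-values measure the spread between these samples.

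All members are described. Outside them, at most 4 genes of a list of cell cycle genes are named by their p after VCF, as well as the 10 named genes most like the member mean. Further genes of the lists that passed the test after CCF are named after their values were seen. Promoters are shown for at most 6 members, called ones first. Members and lists were chosen with earlier results of these data known. Alternatives changed the background correction (normexp with an offset of 50, on the median signal because the mean signal is not used here), scaling, filter, probe rule, blocks, weights and arrays. The array was designed on an older assembly than the promoter table, so that no probe positions are given.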

Additional observations from a re-analysis of the deposited data

Results flagged for a closer look

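Among the 5 control arrays, control 2 stood apart from the other 4 for 3 of the 36 members by Dixon's test: Spc25 at −0.85, Shcbp1 at −3.88 and Birc5 at 0.34, each the highest control value. Chance alone gives about 1 such result in 20 groups, and the members vary together. The share over all genes was not computed, so 3 of 36 is not read as a trait of control 2. Control 2 lay on slide 1, and with it left out the VCF count of members that fell went from 5 to 2, that of CCF against control from 1 to 4 and that of CCF against VCF from 8 to 10.

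The fibres differed from each other by limma's test of the difference itself. CCF exceeded VCF in Cdca3 (1.35), Spc25 (1.09), Ckap2 (1.80), Kif20a (1.43), Prc1 (1.32), Shcbp1 (1.75), Birc5 (1.08) and Mki67 (1.41), and RCF exceeded VCF in Kif20a (1.33), on the log2 scale. All of these lay on the same side on every array of the groups compared. Over the alternatives tried, these differences kept their sign, and the call was kept most often for Mki67 (24 of 27 alternatives) and least often for Spc25 (7 of 27) between CCF and VCF.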

How the results depend on the processing

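The counts of members called depended on the processing, and the signs of the called members on none of the alternatives run. For VCF against control (5 members) the count was 0 with normexp background correction, quantile scaling, the authors' value table, no filter on dim probes, a replicate block, the compared groups only and the arrays of low signal left out (15, 24, 18, 22, 25, 22 and 21 members at an unadjusted p under 0.05, in that order), 2 with the percentile over probes above background on all arrays, 11 with the slide as a fixed block, 13 with the slide as a random block and 10 with array weights. Leaving out 1 array gave 0 to 3. For CCF against control (1) it was 0 with normexp, quantile scaling, that percentile, no filter, the mean of a gene's probes, the replicate block, the compared groups only and the arrays of low signal left out, 2 with the authors' value table or a filter on all 14 arrays, 4 with the slide as a random block, 6 with weights (5 higher and 1 lower), and 0 to 4 without 1 array. For RCF against control (0) it was 1 with the slide as a fixed block or weights, and 0 without any 1 array. For CCF against VCF (8) it was 1 with normexp, 4 with no filter, 22 and 21 with the slide as a fixed and a random block, 14 with weights, 0 with the replicate block, the compared groups only and the arrays of low signal left out, and 3 to 10 without 1 array. For RCF against VCF (1) it was 0 with normexp, quantile scaling, the authors' value table, no filter, the replicate block, the compared groups only and the arrays of low signal left out, 2 with the slide as a fixed block, 14 with weights, and 0 to 2 without 1 array. RCF against CCF gave 0 throughout. The share of all genes called under each alternative is not given here, so a larger count is not read as a larger effect on the members. The cause of these shifts was not tested. With normexp the median difference was −0.42 for VCF against control, 0.57 for CCF against VCF, 0.44 for RCF against VCF and −0.13 for RCF against CCF, and the last was −0.0435 with the slide as a fixed block. Other medians moved by less than the spread between arrays, though that of CCF against control ranged from 0.18 (normexp) to 0.48 (weights). The labels used here do not say that the replicate numbers pair the arrays, and the main fit did not pair them. With group means removed, 12 of 18 pairs with the same number correlated above 0.1 (median r 0.18). Of the 54 other pairs 11 did (median −0.04), and 5 of 12 arrays correlated best with their own number. Same-numbered control, VCF and CCF arrays lay on the same slide, so a shared slide and a pairing cannot be told apart there. The consensus correlation within slides was 0.33, and the main fit treats the arrays as independent. Signal over background limits Kif2c, Aurkb, Shcbp1 and Cdk1 most, well above background on 3, 8, 9 and 10 arrays.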

Other observations

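Outside the list, the 10 named genes whose level followed the member mean most closely over the 14 arrays, with group means removed, were Cstf2 (r = 0.96), a factor of messenger RNA 3' end processing, Fer, Dtx3l, Elp5, Kif5a, a neuronal kinesin, Ifngr2, a chain of the interferon gamma receptor, Acp2, St13, Gm19391 and Cox4i1 (r = 0.91), a subunit of cytochrome c oxidase. None of the 10 is in the lists of other mitotic or replication genes. After VCF they did not follow the members: Cstf2 differed from control by 0.02, St13 by 0.56 and Ifngr2 by −0.30, with adjusted p from limma between 0.480 and 0.991 over the 10. After CCF, Kif5a (0.84, adjusted p = 0.0266) and St13 (0.94, adjusted p = 0.0451) rose by the same test. These genes were ranked by r among 17196, over 14 arrays, and the ranking is a description.

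Ndc80 was the member least like the others, with r = −0.70, and its control values split between −1.20 and −1.32 on control 4 and 5, both on slide 3, and −2.21 to −3.84 on control 1 to 3.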
